A study of Nasonia vitripennis with 15 samples.

Results

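The first 10 h of the white nymph stage were examined in the testes of *Nasonia vitripennis*, a parasitoid wasp whose males are haploid. Members were chosen by their labels: the 3 pools of testes (A, B and C) labelled 25 °C and 10 h were set against the 3 control pools labelled 0 h, which makes 6 of the 15 libraries of the series. Both groups came from the AsymC strain, both were labelled white nymphs and both were at 25 °C, so that time is the difference the labels give between them. The labels give 60 testes per pool, from which total RNA was prepared for paired-end sequencing. The other libraries of the series are 24 h at 25 °C, 10 h at 36 °C and 24 h at 36 °C, with 3 pools in each group. The comparison asks which transcripts change before the nymph leaves the white stage, since the labels give red eyes only to the pools at 24 h.

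In wasps as in other insects, male germ cells divide by mitosis as spermatogonia within cysts, grow as spermatocytes, pass through meiosis and then elongate as spermatids that build a flagellum. Haploid males have no homologs to pair, and wasp spermatocytes therefore make sperm by what amounts to a mitosis-like division. Entry into division depends on cyclins and the kinase Cdk1, whereas the sperm tail is a microtubule axoneme moved by dynein motors. In a bulk testis sample, more cells of a type and more RNA per cell cannot be told apart.

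The total count was 4362798, 3177175 and 1813941 in 10 h pools A, B and C, against 4332475, 6630161 and 1749769 in 0 h pools A, B and C. On the first principal component of the 6 libraries (49% of the variance) the 10 h pools lay at 12.3, 42.3 and 18.5, and the 0 h pools at -29.9, -1.5 and -41.7. The groups thus did not overlap on this component, with 10 h pool B farthest to one side and 0 h pool B nearest to the 10 h pools. They were not set apart in the correlations between libraries. There 0 h pool B was closer to 10 h pool C (0.9732) than to 0 h pools A (0.9588) and C (0.9642). Abundant testis transcripts were present in every pool, among them the axonemal dynein heavy chain *Kl5* at 464 CPM (the count relative to the scaled total of its library) or more. Markers of other tissues were counted as well. The 7 muscle transcripts include the fruit fly flight muscle actin *Act88F*. They summed to 144, 626 and 189 CPM in the 10 h pools, against 92.1, 90.1 and 90.0 CPM in the 0 h pools. The 69 transcripts of cuticle and other epidermal genes summed to 230, 576 and 185 CPM at 10 h, against 264, 161 and 154 CPM at 0 h. The muscle sums did not overlap between groups, and both sums were highest in 10 h pool B. Of the fat body markers, the hexamerin *Hex70b* had 68.6, 73.4 and 52.8 CPM at 10 h, against 33.3, 53.4 and 25.5 CPM at 0 h. It overlapped between groups, with an adjusted p of 0.128, and of 0.005 where the pool letter was added to the fit. The other tested fat body marker, *Hex109*, went the other way without passing, with means of 5.03 CPM at 10 h and 7.23 CPM at 0 h (adjusted p = 0.498). The 65 gut transcripts summed to 97.1, 81.6 and 87.3 CPM at 10 h, against 151, 89.8 and 108 CPM at 0 h. Of the 7 tested gut transcripts, 6 had a negative log2 fold change. The 50 nerve transcripts summed to 73.4, 88.8 and 95.1 CPM at 10 h, against 77.2, 128 and 81.7 CPM at 0 h. The gut and nerve sums overlapped between groups, and no tested member of either passed without the block. The part of such tissue in the results that follow was not tested, and cyst cell genes could not be matched by name.

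More transcripts rose than fell over the first 10 h. Of 8206 transcripts tested, 308 passed (3.75%), of which 279 were higher at 10 h (3.4%) and 29 were lower (0.353%), with an adjusted p under 0.05 in edgeR's quasi-likelihood test. The median log2 fold change was 1.08 among the transcripts that rose and -1.01 among those that fell, against -0.05 over all transcripts tested. The lowest adjusted p was 0.0331, so that all calls lay close to the threshold. Pools did not overlap for 2147 of the 8206 transcripts (26.2%), of which 1141 were higher (13.9%) and 1006 were lower (12.3%) in every 10 h pool. The log2 fold change was positive for 45.7% of all transcripts tested. The p-values measure the spread between pools, and nothing in the labels says how the pools were gathered.

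**Figure D1:**
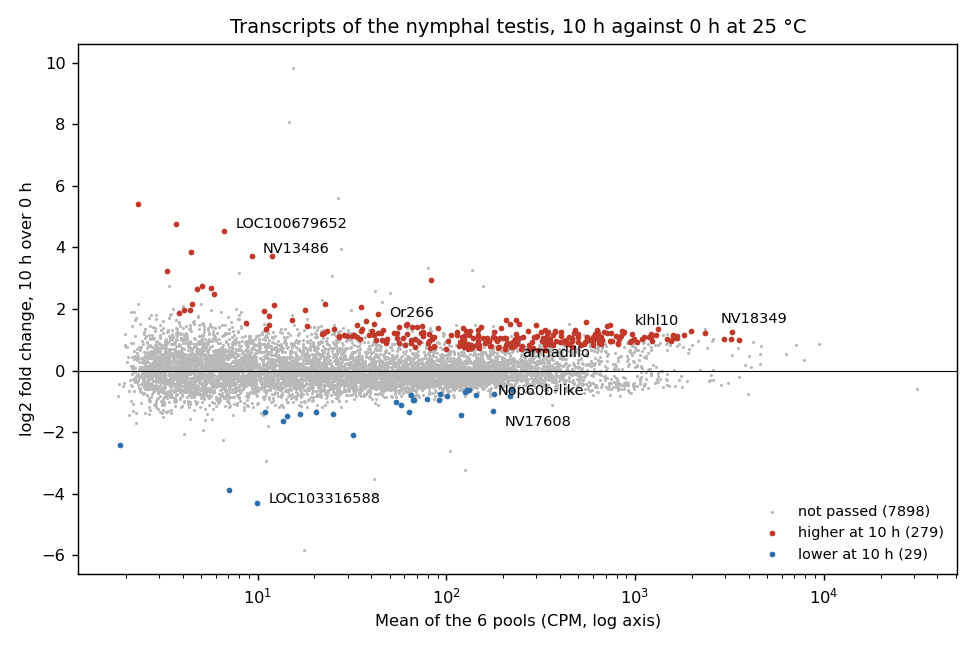
Log2 fold change of each tested transcript, 10 h over 0 h, against its mean level over the 6 pools (CPM, log axis). Red points are the 279 transcripts higher at 10 h, blue points the 29 lower at 10 h, and grey points those that did not pass; the red points lie mostly at medium and high levels.

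The pool letters carried part of the spread, and taking them into account widened the calls. Deviations from the group means correlated between same-letter pools at 0.521 for A, 0.348 for B and 0.14 for C across transcripts. Between pools with different letters the correlation ran from -0.474 to 0.131, the highest being that of 10 h pool C with 0 h pool B, so that letter C was hardly set apart. The block was chosen from these same counts, since the labels do not say what the letters mark. With the pool letter as a replicate block, 1717 transcripts passed (20.9%), of which 988 were higher (12%) and 729 were lower (8.88%). Among them were 306 of the 308 transcripts that passed without the block, each with the same direction. The share of calls that were higher was 90.6% without the block and 57.5% with it. The calls rested on single libraries as well: without 10 h pool B or without 0 h pool C no transcript passed (1119 and 1026 at an unadjusted p under 0.05), whereas without 0 h pool B 697 were higher and 354 were lower. Without 10 h pool A the counts were 146 higher and 12 lower, and without 10 h pool C they were 163 and 10. When the spread was estimated over all 15 libraries, none passed in edgeR (1526 at an unadjusted p under 0.05), against 663 (8.08%) with DESeq2 on the 6 libraries, 539 higher (6.57%) and 124 lower (1.51%). In what follows "passed with the block" refers to the fit with the pool letter, "passed" alone to the fit without it, and "only with the block" compares these fits over all 6 pools.

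**Figure D2:**
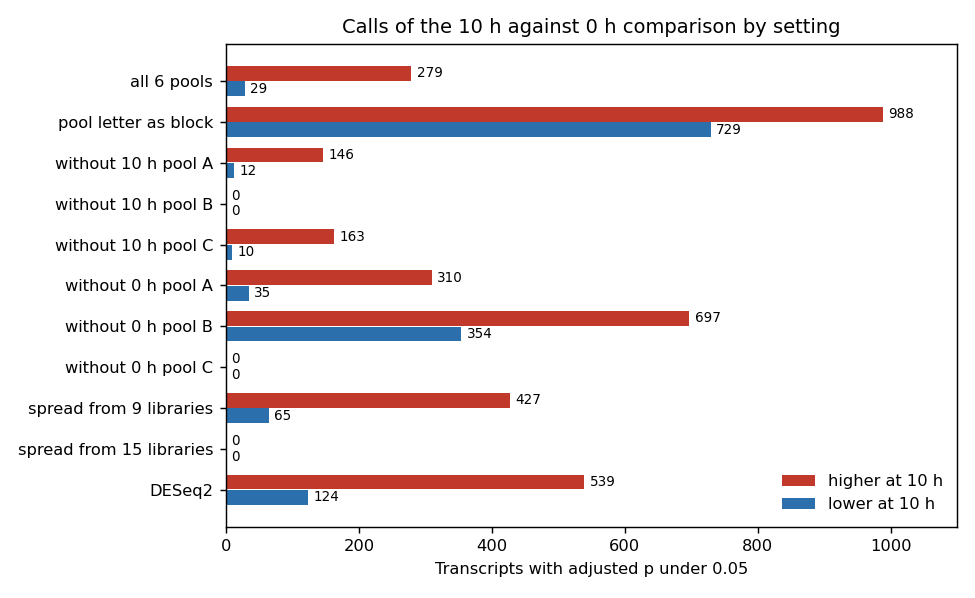
Number of transcripts with an adjusted p under 0.05 that were higher (red) or lower (blue) at 10 h under each setting, by edgeR unless DESeq2 is named. The longest bars, 988 and 729, are those with the pool letter as block, and the bars are at 0 without 10 h pool B, without 0 h pool C and with the spread from 15 libraries.

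The transcripts that rose were often abundant. Over all transcripts 3.4% rose and 0.353% fell, and with the block 12% and 8.88%. Of 140 transcripts with a mean of at least 1000 CPM over the 6 pools, 24 rose (17.1%) and 0 fell. In every 10 h pool 68 of them were higher and 9 lower, where 13.9% and 12.3% of all transcripts were. With the block 74 rose (52.9%) and 14 fell (10%). Of 2067 transcripts between 100 and 1000 CPM, 165 rose (7.98%) and 10 fell (0.484%). Of 3557 between 10 and 100 CPM, 75 rose (2.11%) and 16 fell (0.45%). Of 2442 transcripts under 10 CPM, 15 rose (0.614%) and 3 fell (0.123%). Counting error is larger for the last class. The most abundant of the transcripts that rose without the block, chosen after their values were seen, was NV18349, at 4954, 5013 and 4151 CPM in the 10 h pools, against 2624, 2735 and 1776 CPM in the 0 h pools (log2 fold change 0.98 ± 0.24 SE, adjusted p = 0.0493). Every 10 h pool was above every 0 h pool. It was followed by LOC103316119, with means of 4604 ± 1141 CPM at 10 h and 1937 ± 790 CPM at 0 h, and by LOC100680151, with means of 4326 ± 300 and 2143 ± 453 CPM (SD, n = 3 each). The names of these 3 genes carry no function in the table used here. With the block, more abundant transcripts rose as well, the first of them NV17199, with means of 12069 ± 2557 CPM at 10 h and 6698 ± 1961 CPM at 0 h (adjusted p = 0.128 without and 0.00233 with the block). The single most abundant transcript of the testis, NV15950, had 31468, 20374 and 23018 CPM at 10 h, against 48990, 23907 and 40647 CPM at 0 h, and its pools overlapped. It did not pass (adjusted p = 0.327) and fell with the block by 0.56 on the log2 scale (adjusted p = 0.0473).

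Among genes of the male germ line, *klhl10* rose. Its fruit fly ortholog is the substrate adaptor of a Cullin-3 ubiquitin ligase needed for the individualization of sperm. The transcript of *klhl10* (NV13442) had 1120, 1473 and 1044 CPM at 10 h (in pools A, B and C, the order used throughout), against 518, 687 and 353 CPM at 0 h. All 10 h pools were higher, with the least of them above the highest 0 h pool. It rose with a log2 fold change of 1.22 ± 0.26 (SE, adjusted p = 0.0343), and of 1.25 ± 0.14 with the block (adjusted p = 0.000207). When each pool was left out in turn, its adjusted p lay between 0.00577 and 0.148. The paper had called *klhl10* upregulated in comparing white with red-eyed testes of this series. Its rise is therefore no independent result.

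The 4 measured genes of spermatid differentiation all had positive log2 fold changes, with a median of 0.73, where 45.7% of all transcripts were positive. The paper picked this group from genes it called upregulated in comparing white with red-eyed testes of this series. The shared direction is therefore no independent result. Without the block 1 of the 4 passed, and with it all 4 rose. The gene listed as *armadillo* (NV13691) had 260, 340 and 257 CPM at 10 h, against 156, 194 and 106 CPM at 0 h, so that the pools did not overlap. It rose by a log2 fold change of 0.90 ± 0.22 (SE, adjusted p = 0.0463). A transcript of another gene, NV16988, which the ortholog table pairs with the fly beta-catenin *arm*, had 161, 150 and 128 CPM at 10 h, against 223, 113 and 191 CPM at 0 h, with overlap and an adjusted p of 0.571. The dynein light chain gene *cut up* (NV13256) had 5501, 5530 and 5420 CPM at 10 h, against 4138, 3833 and 3300 CPM at 0 h. The 10 h pools differed little among themselves and all lay above the 0 h pools, but the change of 0.55 ± 0.22 passed only with the block (adjusted p = 0.185 without and 0.0228 with it). *didum* (NV12941), a class V myosin, had 63.9, 114 and 70.6 CPM at 10 h, against 50.9, 66.2 and 49.4 CPM at 0 h. Its pools overlapped through 0 h pool B, and it too passed only with the block (adjusted p = 0.196 without and 0.0182 with it).

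The 5 genes of the sperm motility group, most of them dyneins of the axoneme, gave a median log2 fold change of 0.90. None of the 5 passed without the block and all 5 rose with it, where 12% of all transcripts rose. The paper picked these 5 from the same upregulated genes of this series, so their shared rise is no independent result either. The dynein NV16467 had 1398, 2976 and 1830 CPM at 10 h, against 613, 1489 and 608 CPM at 0 h. Pool B was the highest pool at both times, so that the groups overlapped while each letter was higher at 10 h. Its log2 fold change was 1.19 ± 0.38 without the block (adjusted p = 0.1) and 1.26 ± 0.15 with it (adjusted p = 0.00024). The same held for *Kl5* (NV16259, which is also listed as *mule* among the spermatid genes), with 880, 1764 and 1171 CPM at 10 h, against 464, 1103 and 469 CPM at 0 h, and for the dynein NV14122, with 943, 1684 and 1093 CPM at 10 h, against 576, 1102 and 579 CPM at 0 h. In both genes 0 h pool B exceeded 10 h pool A. *Dnai2* (NV10124), an intermediate chain of axonemal dynein, and *heat* (NV10434) showed no overlap. *Dnai2* averaged 1226 ± 113 CPM at 10 h and 705 ± 215 CPM at 0 h (SD, n = 3 each), with an adjusted p of 0.0906 without the block and of 0.00224 with it. *heat* averaged 1454 ± 242 CPM at 10 h and 766 ± 273 CPM at 0 h, with an adjusted p of 0.0747 without and of 0.00118 with the block. Without 0 h pool B, all of *Kl5*, *heat*, *Dnai2* and both dyneins passed. That pool lies nearest to the 10 h pools, so that leaving it out favours a larger difference. Each of these genes passed in only 1 of the 6 fits that left out a pool. Their highest adjusted p in those fits ran from 0.277 for *heat* to 0.587 for the dynein NV14122.

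Among other genes of the cytoskeleton was *tektin-1* (NV13124), a filament protein of the axonemal microtubules. It had 14, 37.4 and 40.0 CPM at 10 h, against 8.14, 26.3 and 18.7 CPM at 0 h, with overlapping pools and a pass only with the block (adjusted p = 0.372 without and 0.0288 with it). The alpha-tubulin NV13570 averaged 4709 ± 550 CPM at 10 h and 3366 ± 383 CPM at 0 h, and rose with the block by a log2 fold change of 0.48 ± 0.15 (adjusted p = 0.0338). Another gene with the same fly orthologs, NV13665, did not pass with the block (adjusted p = 0.127), and reads may have been shared between near-identical copies in the counting.

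**Figure D3:**
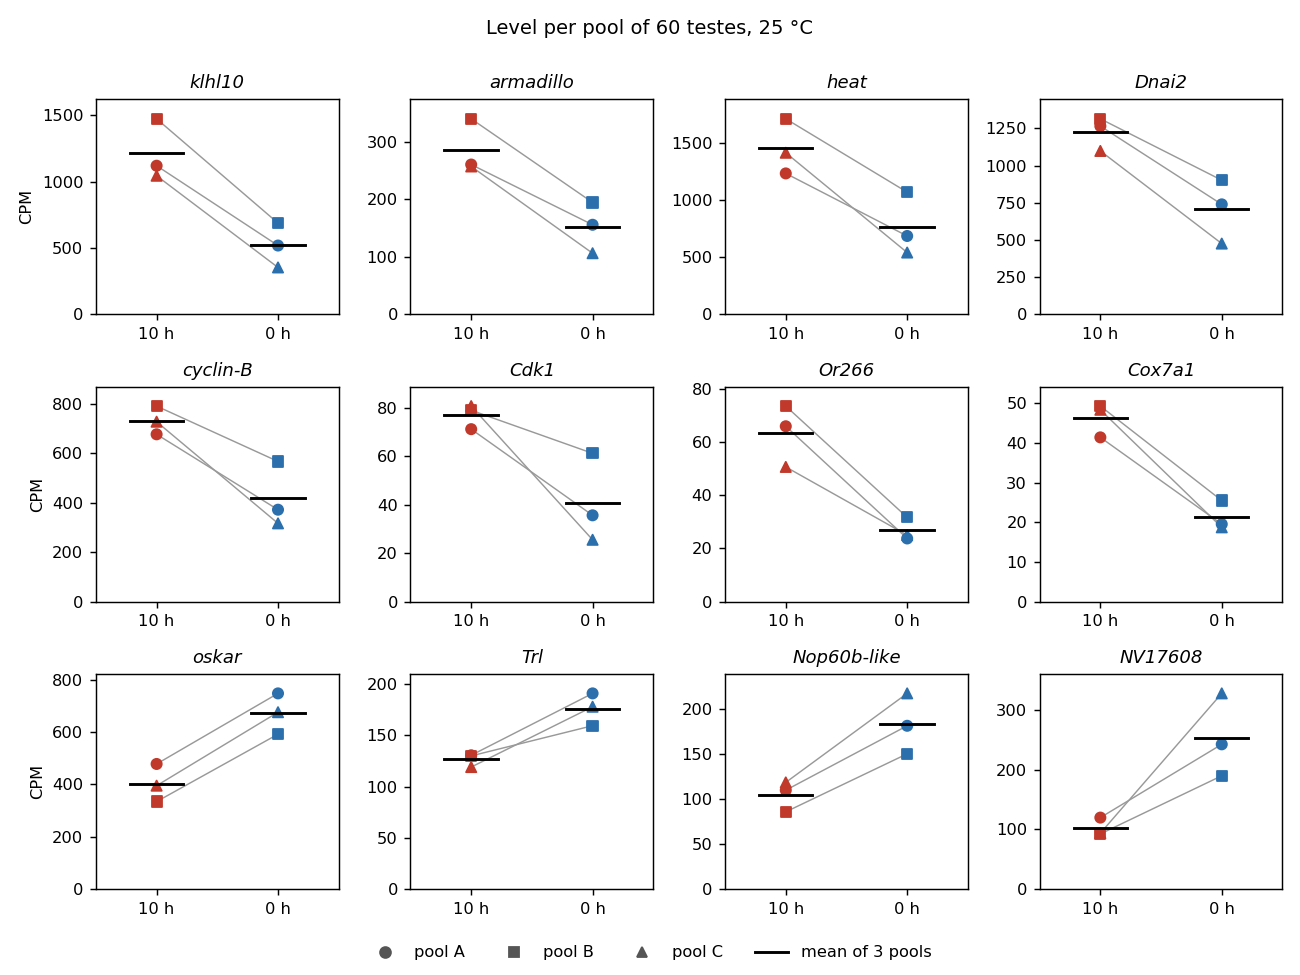
Level of 12 named transcripts in each pool (CPM, axes from 0), with 10 h in red on the left and 0 h in blue on the right. Lines join pools with the same letter and black bars are means of 3 pools; klhl10 runs from 1044 to 1473 CPM at 10 h and from 353 to 687 CPM at 0 h, and oskar lies between 334 and 478 CPM at 10 h and between 592 and 748 CPM at 0 h.

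Some regulators of entry into division rose with the block and did not pass without it. Of the 10 tested transcripts of the known meiosis genes, 0 passed without the block in edgeR, and with it 4 rose (40%) and 1 fell (10%), against 12% and 8.88% of all transcripts. Their median log2 fold change was 0.62. *cyclin-B* (NV11968), the partner that activates Cdk1 at the start of division, had 677, 792 and 728 CPM at 10 h, against 372, 567 and 317 CPM at 0 h. *Cdk1* (NV11863) had 71.1, 78.9 and 80.6 CPM at 10 h, against 35.6, 61.1 and 25.5 CPM at 0 h. In both, the groups did not overlap and 0 h pool B was the closest to the 10 h pools. The log2 fold change was 0.80 ± 0.23 for *cyclin-B* (adjusted p = 0.0724 without and 0.00202 with the block) and 0.88 ± 0.28 for *Cdk1* (adjusted p = 0.0983 and 0.00818). *cyclin-A* (NV14248) averaged 545 ± 43.2 CPM at 10 h and 351 ± 99.0 CPM at 0 h, and *plk-4* (NV14781), the kinase of centriole duplication, averaged 459 ± 15.8 CPM at 10 h and 300 ± 81.3 CPM at 0 h. Both rose with the block (adjusted p = 0.0054 and 0.0098) and not without it (0.119 and 0.115). Without 0 h pool B all 4 passed with no block, with log2 fold changes of 1.09 for *cyclin-B*, 1.31 for *Cdk1*, 0.87 for *cyclin-A* and 0.85 for *plk-4* (adjusted p between 0.00577 and 0.0127). Leaving out this pool, the closest to the 10 h pools, favours a larger difference. Each of the 4 passed in only 1 of the 6 fits that left out a pool. Their highest adjusted p in those fits ran from 0.284 for *cyclin-B* to 0.41 for *cyclin-A*.

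The cell cycle list, which includes *cyclin-B*, *Cdk1*, *cyclin-A* and *plk-4*, did not move as a whole. Of its 15 tested transcripts 7 had a positive and 8 a negative log2 fold change, with a median of -0.10. None passed without the block, and with it 5 rose (33.3%) and 1 fell (6.67%), against 12% and 8.88% of all transcripts. Another cell cycle gene, *fzy*, which activates the anaphase-promoting complex in flies, had 12.5, 21.4 and 20.6 CPM at 10 h, against 7.21, 11.2 and 10.9 CPM at 0 h, without overlap. It passed only with the block (adjusted p = 0.158 without and 0.0258 with it). *Cdk4*, the kinase of the G1 phase, went the other way, at 29.2, 21.4 and 31.1 CPM at 10 h, against 44.7, 31.8 and 42.1 CPM at 0 h, again without overlap and with a pass only with the block (adjusted p = 0.24 and 0.0449). *mei-P26*, which in flies limits the growth and division of germ cells, was counted as several transcripts. The one at 19.5, 6.12 and 8.34 CPM at 10 h, against 35.1, 7.88 and 28.1 CPM at 0 h, overlapped between groups and fell with the block (adjusted p = 0.0303). The other tested transcript, at 16.7, 17.3 and 27.2 CPM at 10 h, against 20.9, 40.5 and 28.6 CPM at 0 h, did not pass (adjusted p = 0.31 without and 0.118 with the block). Of the 10 tested transcripts of the further meiosis genes, among them the kinesin *Klp3A* and the exocyst subunit *Exo84*, none passed in either edgeR fit, with a median log2 fold change of -0.17. *Klp3A* had 262, 259 and 269 CPM at 10 h, against 237, 261 and 218 CPM at 0 h, and its groups overlapped.

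Some genes known from the early germ line and from oogenesis fell with the block. *oskar*, which organizes germ plasm in flies and wasps, had 478, 334 and 395 CPM at 10 h, against 748, 592 and 676 CPM at 0 h. Every 10 h pool was below every 0 h pool, by a log2 fold change of -0.74 ± 0.19 (SE), which missed the threshold (adjusted p = 0.0585) and passed with the block (adjusted p = 0.00131). Of the 6 germ line marker transcripts tested, none passed without the block and 2 fell with it (33.3%), where 8.88% of all transcripts fell. The log2 fold change was positive in 2 of the 6 and negative in 4, with a median of -0.49. Of the 2 that fell, *oskar* was not among the germ line markers first planned. The other of these is a *piwi/aub* transcript, from the family of small RNA guided silencing proteins of the germ line, at 2.50, 5.44 and 6.12 CPM at 10 h, against 9.54, 9.02 and 9.88 CPM at 0 h. It did not overlap between groups, whereas a transcript of the same gene at 7.73, 13.6 and 15 CPM at 10 h, against 5.35, 14.9 and 7.28 CPM at 0 h, did. Which of these transcripts a read belongs to is uncertain where they share sequence. The sum over all 8 germ line transcripts, most of it *oskar*, was 511, 380 and 438 CPM at 10 h, against 784, 647 and 724 CPM at 0 h.

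All 9 tested genes of the oogenesis group had a negative log2 fold change, with a median of -0.38 against -0.05 over all transcripts. The paper picked this group from genes it called downregulated in comparing white with red-eyed testes of this series. The shared direction is therefore no independent result. None passed without the block and 2 fell with it (22.2%, against 8.88% of all transcripts). *Trl*, the GAGA transcription factor, had 130, 130 and 119 CPM at 10 h, against 191, 159 and 178 CPM at 0 h. *Neb*, a kinesin-like protein, had 49.9, 36.0 and 50.6 CPM at 10 h, against 67.9, 56.3 and 67.1 CPM at 0 h. Neither gene overlapped between groups, and the adjusted p with the block was 0.016 for *Trl* and 0.0307 for *Neb*. *Lis1*, a regulator of dynein, averaged 710 ± 75.9 CPM at 10 h and 922 ± 4.47 CPM at 0 h (SD, n = 3 each), and did not pass in either fit (adjusted p = 0.255 without and 0.059 with the block).

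The 4 genes of the Notch receptor processing group, which serve endosome and lysosome traffic, also had negative values, with a median log2 fold change of -0.31. The paper picked them from the same downregulated genes, so the same limit holds. *carnation*, a subunit of the vacuolar tethering complex in flies, was the only member to pass, with the block alone (adjusted p = 0.0296), at 48.7, 44.5 and 52.3 CPM at 10 h, against 70.7, 57.3 and 78.0 CPM at 0 h. *ruby* and *deep orange* lay below the 0 h pools in every 10 h pool but did not pass. *Blanks*, a double-stranded RNA binding protein that fly spermatids need, had 632, 579 and 592 CPM at 10 h, against 848, 789 and 929 CPM at 0 h, without overlap. It fell with the block by 0.51 on the log2 scale (adjusted p = 0.0159) and did not pass without it (adjusted p = 0.128). The paper had called *Blanks* downregulated in this series too, so its fall is no independent result. Of the 4 tested transcripts of the paper's 9 conserved genes, 2 rose with the block (50%), 1 fell (25%) and 1 did not pass. The 7 tested transcription factors had log2 fold changes from -0.70 to -0.01, with a median of -0.47, where 45.7% of all transcripts were positive. With the block 2 fell (28.6%, against 8.88% of all transcripts), *Trl* and *Srf*, the serum response factor. *Trl* is also in the oogenesis group that the paper picked, so the limit given there holds for it.

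**Figure D4:**
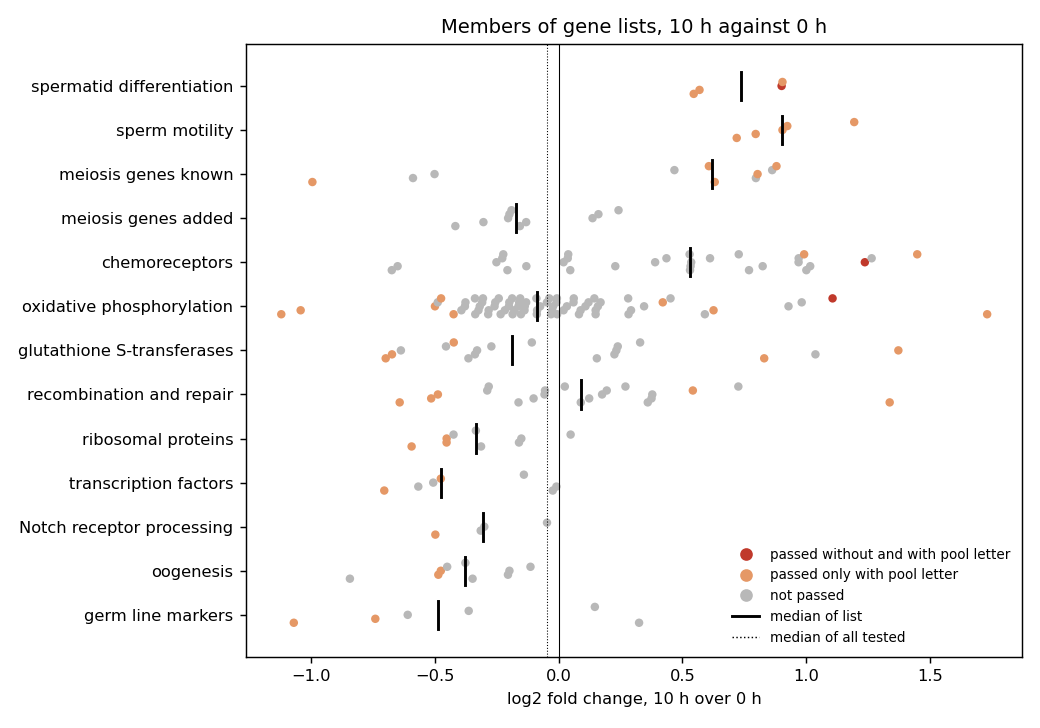
Log2 fold change, 10 h over 0 h, of each tested member of 13 gene lists, with the list median as a black bar and the median over all tested transcripts (-0.05) as a dotted line. Dark red points passed with and without the pool letter, orange points passed only with it, and grey points did not pass. Sperm motility (median 0.90) lies to the right and oogenesis (median -0.38) to the left. The paper picked both of these lists, spermatid differentiation and Notch receptor processing from its own calls in this series.

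A gene of ribosome production fell without the block. *Nop60b-like*, named after a fly gene whose product modifies ribosomal RNA in the nucleolus, had 110, 85.7 and 118 CPM at 10 h, against 181, 150 and 217 CPM at 0 h. The groups did not overlap, and it fell by 0.80 on the log2 scale (SE 0.19, adjusted p = 0.0418). It was the only transcript with a descriptive name among those that fell without the block. NV18665, the ortholog of the fly nucleolar protein gene *mod*, averaged 212 ± 41.8 CPM at 10 h and 340 ± 65.9 CPM at 0 h, and fell with the block (adjusted p = 0.0864 without and 0.00236 with it). Of 9 ribosomal protein genes, some of them mitochondrial, 0 passed without the block and 3 fell with it (*Rpl6*, *Rpl7a* and *RpL10*), against 8.88% of all transcripts, and the median log2 fold change was -0.33. *Rpl6* had 1010, 724 and 870 CPM at 10 h, against 1535, 876 and 1518 CPM at 0 h, so that 0 h pool B lay within the range of the 10 h pools.

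Few respiratory chain genes were called. Of 71 tested transcripts of oxidative phosphorylation, 1 rose and none fell, and with the block 4 rose (5.63%) and 5 fell (7.04%), shares below the 12% and 8.88% of all transcripts. Their median log2 fold change was -0.09. *Cox7a1*, a subunit of cytochrome c oxidase, had 41.4, 49.3 and 48.4 CPM at 10 h, against 19.5, 25.5 and 18.7 CPM at 0 h. Its pools did not overlap and it rose by a log2 fold change of 1.11 ± 0.23 (SE, adjusted p = 0.0343). *Cox6c*, of the same enzyme, averaged 433 ± 44.0 CPM at 10 h and 280 ± 65.7 CPM at 0 h and rose with the block (adjusted p = 0.104 without and 0.00582 with it), whereas a low *Cox4I1* transcript averaged 7.88 ± 2.85 CPM at 10 h and 16.9 ± 3.96 CPM at 0 h and fell with the block (adjusted p = 0.0112).

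In DNA repair, *Pol-iota*, a translesion polymerase, had 85.3, 68.3 and 84.0 CPM at 10 h, against 120, 111 and 141 CPM at 0 h. It was lower in every 10 h pool and fell with the block (adjusted p = 0.00368). *Mus201*, the fly nuclease of excision repair, was higher in every 10 h pool, with means of 174 ± 19.4 CPM at 10 h and 119 ± 16.7 CPM at 0 h, and rose with the block (adjusted p = 0.00559). Over the 21 tested transcripts of recombination and repair, 0 passed without the block, 2 rose (9.52%) and 3 fell (14.3%) with it, near the 12% and 8.88% of all transcripts, and the median log2 fold change was 0.09. Of 18 glutathione S-transferase transcripts, 2 rose (11.1%) and 3 fell (16.7%) with the block, again beside 12% and 8.88%. *GstS3* had 551, 349 and 442 CPM at 10 h, against 786, 571 and 783 CPM at 0 h, and *GstD5* had 39.7, 35.7 and 34.5 CPM at 10 h, against 25.8, 23.5 and 10.9 CPM at 0 h, without overlap in either.

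Other risers with a name came from several families. NV13156, the ortholog of the fly thioredoxins, had 223, 266 and 234 CPM at 10 h, against 123, 129 and 85.3 CPM at 0 h (log2 fold change 1.09 ± 0.18, adjusted p = 0.0331). *Wds*, whose fly ortholog is a subunit of histone methyltransferase complexes, had 34.4, 30.9 and 26.7 CPM at 10 h, against 16.5, 14.5 and 8.32 CPM at 0 h (1.19 ± 0.30, adjusted p = 0.0485). Neither overlapped between groups.

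A set of chemoreceptor transcripts was measurable in the testis. Of 317 in the tables, 30 passed the filter on low counts and 127 had no count in the 6 libraries. Of the 30, 1 rose (3.33%) and none fell without the block and 3 rose with it (10%), close to the 3.4% and 12% of all transcripts, and the median log2 fold change was 0.53. The odorant receptor *Or266* had 65.9, 73.4 and 50.6 CPM at 10 h, against 23.7, 31.6 and 25.0 CPM at 0 h, which did not overlap (log2 fold change 1.24 ± 0.23 SE, adjusted p = 0.0331). The gustatory receptor *Gr45* had 32.2, 24.8 and 19.5 CPM at 10 h, against 13.7, 16.5 and 7.28 CPM at 0 h, and passed only with the block (adjusted p = 0.118 without and 0.0118 with it). What these receptors bind is not known from the sources used here.

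Among transcripts that passed with 10 CPM or more on average in the higher group, the largest changes on the log2 scale were found in genes whose names give no function. LOC100679652 had 6.24, 27.5 and 4.45 CPM at 10 h, against 0.465, 0.573 and 0.520 CPM at 0 h (log2 fold change 4.53 ± 0.79 SE, adjusted p = 0.0331). NV13486 had 11.2, 12.9 and 27.8 CPM at 10 h, against 0.465, 1.72 and 1.56 CPM at 0 h (3.71 ± 0.54, adjusted p = 0.0331). Both rose clear of the 0 h pools, the first mainly in pool B and the second mainly in pool C. A transcript of NV15714 had 12.7, 41.5 and 11.7 CPM at 10 h, against 3.02, 0.430 and 2.08 CPM at 0 h (3.71 ± 0.68, adjusted p = 0.0331), and the other tested transcript of that gene overlapped between groups (adjusted p = 0.0691). NV17514 had 86.3, 277 and 74.5 CPM at 10 h, against 27.9, 10.5 and 19.8 CPM at 0 h (2.95 ± 0.59, adjusted p = 0.0391). NV17514 and LOC100679726 were the 2 of the 308 calls that did not pass with the block (adjusted p = 0.194 and 0.198). Both were highest in 10 h pool B, where the muscle and epidermis markers were highest too. This was not particular to them, since 210 of the 279 transcripts that rose were highest in 10 h pool B. The remaining 7 of the 12 largest risers had log2 fold changes between 1.78 and 2.50.

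The muscle actin *Act88F* was likewise highest in 10 h pool B, at 88.8, 538 and 115 CPM at 10 h, against 39.3, 12.3 and 27.6 CPM at 0 h. It was higher in every 10 h pool but did not pass (adjusted p = 0.0858 without and 0.306 with the block). The other tested muscle gene, *unc-45*, had 53.9, 81.3 and 71.7 CPM at 10 h, against 52.8, 77.2 and 61.9 CPM at 0 h, and its groups overlapped. The cuticle protein *Cpap3-a1* had 4.49, 6.46 and 2.78 CPM at 10 h, against 0.233, 0 and 0 CPM at 0 h, and rose (adjusted p = 0.0331). It was 1 of 13 tested epidermal transcripts, whose median log2 fold change was 0.39, and the others did not pass without the block. A single transcript, NV12630, had 0 counts in every 0 h pool and at least 10 counts in each 10 h pool, with 19, 237 and 12 counts in pools A, B and C. It was not called without the block (adjusted p = 0.124) and was with it (adjusted p = 9.8e-05), and no transcript showed the opposite pattern.

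Among the transcripts that fell, LOC103316588 had 0.998, 0.340 and 1.67 CPM at 10 h, against 36.5, 8.31 and 12 CPM at 0 h (log2 fold change -4.31 ± 0.72 SE, adjusted p = 0.0331). LOC100678365 had 0.499, 0 and 2.78 CPM at 10 h, against 23.7, 5.01 and 10.4 CPM at 0 h (-3.89 ± 0.86, adjusted p = 0.0353). The 10 h pools of both were near the limit of counting. At higher levels, NV17608 had 120, 92.2 and 93.4 CPM at 10 h, against 242, 190 and 328 CPM at 0 h (-1.31 ± 0.21, adjusted p = 0.0331), and NV12997 had 96.3, 38.4 and 58.4 CPM at 10 h, against 220, 119 and 188 CPM at 0 h (-1.43 ± 0.31, adjusted p = 0.0353). Neither overlapped between groups, and 0 h pool B was the lowest 0 h pool in both. The other 8 of the 12 largest falls had log2 fold changes between -2.11 and -1.35.

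Non-coding RNA made up 415 of the tested transcripts, of which 18 rose (4.34%) and 1 fell, against 261 (3.36%) and 28 of 7775 messenger RNAs. With the block 90 non-coding transcripts rose (21.7%) and 19 fell, against 896 (11.5%) and 709 messenger RNAs. The median log2 fold change was 0.29 for non-coding transcripts and -0.06 for messenger RNAs, with no test of the difference. The most abundant non-coding transcript that rose without the block, LOC100677891, averaged 892 CPM at 10 h and 421 CPM at 0 h (adjusted p = 0.0331). Among 475 genes with more than 1 tested transcript, none had transcripts that passed in opposite directions, with or without the block.

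The 24 h pools at 25 °C, labelled as red-eyed, give the continuation of these levels, scaled here over all 15 libraries. *klhl10* had 483, 650 and 313 CPM at 0 h, 1070.3, 1364 and 954 CPM at 10 h, and 2687, 1944 and 1762 CPM at 24 h, with no overlap between successive times. *cyclin-B* had 347, 537 and 281 CPM at 0 h, 647, 733 and 666 CPM at 10 h, and 634, 804 and 809 CPM at 24 h, where the last times overlapped. *oskar* had 696, 560 and 600 CPM at 0 h, 457, 309 and 361 CPM at 10 h, and 143, 171 and 206 CPM at 24 h, again with no overlap. Between 24 h and 10 h, a comparison that uses the same 10 h pools, the log2 fold change was 0.92 for *klhl10* (adjusted p = 0.0379), 0.14 for *cyclin-B* (adjusted p = 0.654) and -1.11 for *oskar* (adjusted p = 0.0345). In that comparison 340 of 7573 transcripts passed (4.49%), of which 244 were higher at 24 h (3.22%) and 96 were lower (1.27%).

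The change over the first 10 h was also tested against the change from 10 h to 24 h in a fit of the 9 libraries at 25 °C. None of 8261 transcripts (0%) differed in edgeR (222 at an unadjusted p under 0.05), against 2 with DESeq2. These were NV13486, with 0.433, 1.63 and 1.38 CPM at 0 h, 10.7, 12 and 25.4 CPM at 10 h, and 1.40, 2.94 and 7.94 CPM at 24 h, and *Y-b*, a yellow family gene, with 27.3, 17.2 and 24.0 CPM at 0 h, 14.5, 13.2 and 9.65 CPM at 10 h, and 68.8, 36.8 and 30.5 CPM at 24 h. The level of the first was highest and that of *Y-b* lowest at 10 h in all 3 pools. With the replicate block 1 transcript differed in edgeR, which was NV13486. The 10 h pools at 36 °C had 557, 1726 and 353 CPM of *klhl10* and 661, 245 and 547 CPM of *oskar*, each a wider range than that of the 10 h pools at 25 °C.

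**Figure D5:**
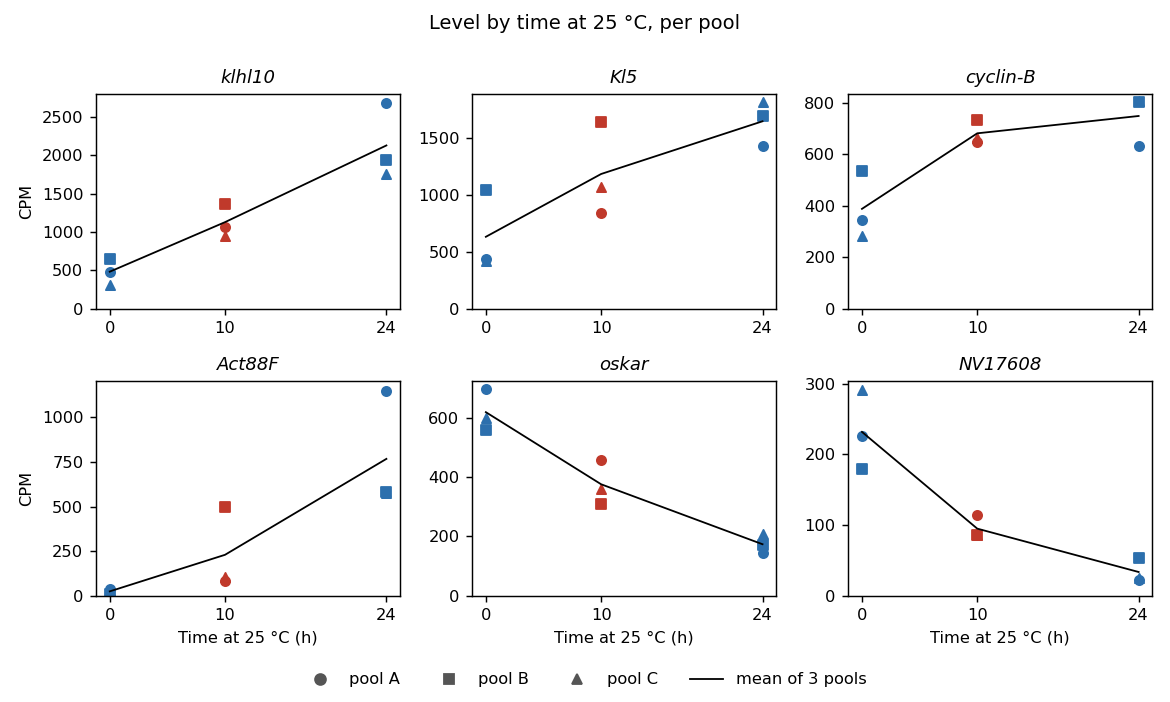
Level of 6 transcripts by time at 25 °C (h), in CPM scaled over 15 libraries, with a point for each pool (10 h in red, other times in blue) and a line through the means of 3 pools. klhl10 is higher and oskar lower at each later time, whereas cyclin-B at 24 h (634 to 809 CPM) overlaps its level at 10 h (647 to 733 CPM).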

How the data were processed

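Reads had been mapped by the authors with TopHat2 (2.1.0) against assembly Nvit_2.1. The authors then counted reads per RefSeq transcript, either with htseq-count (methods) or with featureCounts 1.6.3 (submitters' notes). The authors deposited unnormalized counts of 26279 transcripts, of which 9960 had no count in the 6 libraries used here, and 54 columns of normalized values and the authors' own fold changes and p-values were left aside.

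Counts were analysed in edgeR 4.0.16 under R 4.3.3, with filterByExpr, TMM factors and robust quasi-likelihood estimation, and a transcript passed where its Benjamini-Hochberg adjusted p was under 0.05. All adjusted p-values come from edgeR unless DESeq2 (1.42.0) is named. CPM were scaled with the TMM factors, and a standard error is the log2 fold change over the square root of F. The labels do not say what the pool letters mark. Same-letter pools deviated together across transcripts (0.521, 0.348 and 0.14, against at most 0.131 between different letters), so the letters were taken as a pairing, and the replicate block was given beside results it changed. Deviations were taken from group means, which ties these correlations to one another. The pairing was also chosen from the same counts that were then tested. No pools within a group were alike enough to be 1 library deposited again. The method was tested on simulated data.

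Of the gene IDs, 11605 were found in a RefSeq table of Nvit_psr_1.1, which gave 879 descriptive symbols. The rule for named genes took the 12 largest rises and 12 largest falls among transcripts that passed, with non-overlapping pools and 10 CPM or more on average in the higher group. It added up to 10 each with a descriptive name, genes the paper names, the 4 of lowest p per list, markers that passed, and transcripts at 0 in all pools of a group with 10 or more counts in every pool of the other. *fzy*, *Cdk4*, NV13570, NV13665, LOC100677891 and the most abundant transcripts fall outside it and were chosen after their values were seen. The members and lists were chosen with earlier results of these data known. Alternatives were other scalings, filters, tests and sets of libraries, and each pool left out. Python 3.11.15 (pandas 2.3.3, numpy 2.4.6, matplotlib 3.10.9) made tables and plots. A gene that the rule named is not reported here.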

Additional observations from a re-analysis of the deposited data

How the results depend on the processing

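Counts of transcripts higher and lower at 10 h were 279 and 29. With RLE or upper quartile factors, at least 10 counts in each library, counts summed per gene or no robust estimation they stayed within 1.5 times of these. They were 539 and 124 with DESeq2, 612 and 148 with no filter on low counts, and 427 and 65 with the spread from the 9 libraries at 25 °C. With the replicate block they were 988 and 729. They were 0 and 0 both with all 15 libraries in the fit and against a log2 fold change of 1. Leaving out each pool in turn gave 0 to 697 higher and 0 to 354 lower. For the difference between the changes, 1 transcript was higher and 1 lower with DESeq2 and likewise with no filter, and 1 was higher with the replicate block. Leaving out each of the 9 pools gave 0 in either direction. Of the 87 named transcripts followed through the alternatives, none changed direction in any of them. With the block 51 of them passed that had not passed before and 2 no longer passed, and the block changed no other call among them. The 87 were followed because they passed with or without the block, apart from *Act88F*, *Lis1*, *ruby* and *deep orange*. The 51 thus follow from that choice, which also favours a steady direction. The cause of these differences was not tested. The smallest libraries, pool C at both times, limit what can be seen at low levels.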
